A study of Mus musculus with 4 samples.

Results

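The 10 genes described here encode enzymes and a transporter that build the lipids of the epidermal barrier and of sebum. They are the stearoyl-CoA desaturases Scd1 and Scd3, the fatty acid elongases Elovl3 and Elovl4, the ceramide synthase Cers3, the dihydroceramide desaturase and hydroxylase Degs2, the lipoxygenases Alox8, Alox12b and Aloxe3, and the lipid transporter Abca12. They were taken by gene symbol from a table of 45706 genes, each symbol matched 1 identifier, and all 10 passed the filter on low values described below. RNA was measured in whole digit tips of mice that were regenerating 14 days after they had been cut. There were 4 genotypes with 1 library apiece, wildtype, Sp6 cKO, Sp8 cKO and the double knockout Sp6+Sp8 cKO, where cKO stands for conditional knockout and the labels put Mmu. before each knockout name. Sp6 and Sp8 are zinc-finger transcription factors of 1 family that are made in epidermis. Per the labels' protocols, mice received 75 mg/kg tamoxifen on 5 days to induce deletion, and the digit was cut after 5 further days. The Cre driver, the strain, age and sex of the mice, the number of animals or digits in a library and any tamoxifen given to wildtype mice are not stated in the labels. Per the labels all 3 cKO libraries are of batch 1 while wildtype is of batch 3, so against wildtype a knockout and its batch cannot be told apart.

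The outer layer of the epidermis is sealed by sheets of lipid between dead, cross-linked keratinocytes. Suprabasal keratinocytes lengthen fatty acids to very long chains, join them to sphingoid bases as ceramides and load the products into lamellar granules, and lipoxygenases then oxidise the linoleate carried by acylceramides so that these can be bound to the cornified envelope. Sebaceous glands use a partly overlapping set of desaturases, elongases and acyltransferases to make the wax esters and triglycerides of sebum.

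Library totals were 21834883 counts in wildtype, 13054843 for Sp6 cKO, 12588511 for Sp8 cKO and 15146015 for Sp6+Sp8 cKO. Sp6 stood at 97.7 CPM (read counts scaled to a common library size with TMM factors) in wildtype, 29.2 CPM in Sp6 cKO, 95.6 CPM in Sp8 cKO and 57.8 CPM in Sp6+Sp8 cKO, and Sp8 at 63.9, 66.1, 16.8 and 13.4 CPM in the same order. The labels of the single knockouts therefore match the gene deleted, while Sp6 in Sp6+Sp8 cKO was only 1.69-fold lower than in wildtype. The tissue label matched its markers: Krt5 and Krt14 of basal keratinocytes were at 1679 CPM or more in each library, the nail keratin Krt84 was at 397 CPM or more, and the bone genes Runx2 and Sp7 were at 34.3 CPM or more. Sex-linked genes also differed: Xist was at 27.9 CPM in Sp8 cKO and between 1526 and 3528 CPM in the other libraries, while 4 Y-linked genes together gave between 115 and 249 CPM. The other libraries also differed from each other, with Xist at 1526 CPM in wildtype, 1963 CPM in Sp6 cKO and 3528 CPM in Sp6+Sp8 cKO. The Y-linked genes together gave 173, 142 and 115 CPM in the same order. A difference between libraries, above all one with Sp8 cKO, therefore cannot be told apart from a difference in the sex of the animals. With no replicates there is no test of any difference below. Genes were counted as past a size rule when the log2 ratio (prior count 2) was at least 1 in either direction, either library reached a CPM of 1, and the exact Clopper-Pearson 95% interval of the ratio excluded 1. All intervals cover counting error only and say nothing of differences between animals, and reads copied by PCR without molecular identifiers may make them too narrow. In whole tissue, fewer cells of a type and less RNA per cell cannot be told apart.

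Across the 10 genes, 7 kept levels within 2-fold in all 6 pairwise comparisons of libraries, and only Scd3, Degs2 and Alox8 passed the size rule in any. The share of all genes that passed in any of the 6 was not taken, so this count has no background beside it. Shares are given for each comparison on its own. In Sp6 cKO against wildtype 2 of 10 genes passed, Alox8 higher and Scd3 lower, where 4.4% of all 16884 genes tested passed (2.24% higher and 2.16% lower). In Sp8 cKO 0 of the 10 genes passed, against 3.82% of all genes (2.27% higher and 1.55% lower). In Sp6+Sp8 cKO 3 of 10 passed, Alox8 higher and Scd3 and Degs2 lower, against 5.79% of all genes (2.84% higher and 2.95% lower). The median log2 ratios of the 10 genes over wildtype were 0.04 for Sp6 cKO, -0.18 for Sp8 cKO and -0.31 for Sp6+Sp8 cKO, beside -0.01, -0.01 and -0.02 over all genes tested. The 3 comparisons share the wildtype library, so their ratios are not independent of each other.

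**Figure D1:**
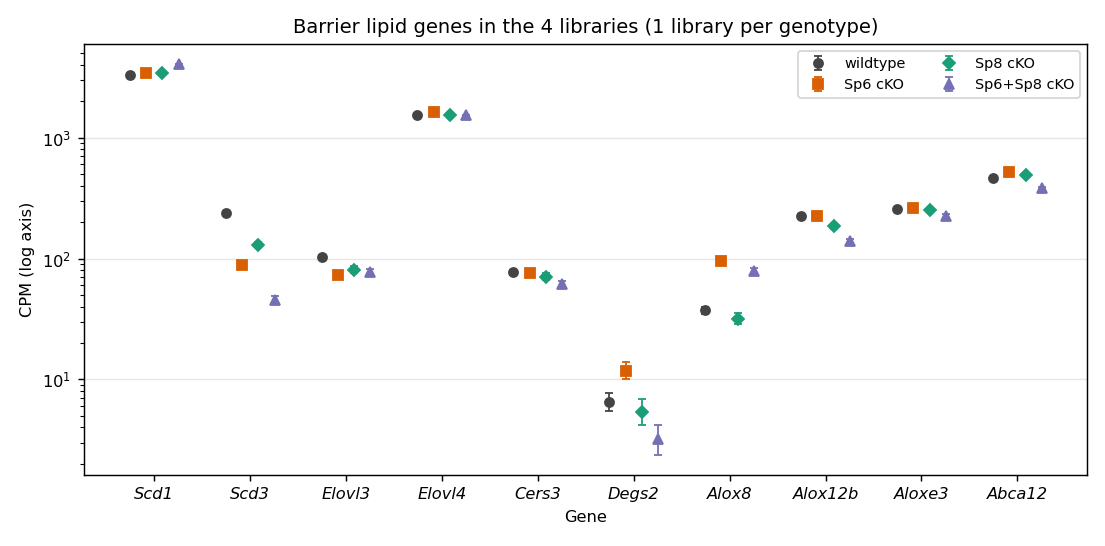
CPM on a log axis of the 10 genes in wildtype and in the knockout libraries (Sp6 cKO, Sp8 cKO, Sp6+Sp8 cKO), with exact Poisson 95% intervals that cover counting error only. Scd3 runs from 236 CPM in wildtype down to 45.2 CPM in Sp6+Sp8 cKO, and Alox8 is high in Sp6 cKO and Sp6+Sp8 cKO, while most other genes lie close together.

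Compared per kilobase of annotated exon, the 10 genes spanned a wide range in each library. In wildtype the order was Scd1 at 675 CPM per kb, Elovl4 at 514, Alox12b at 92.7, Scd3 at 66.5, Elovl3 at 51.9, Aloxe3 at 39.8, Abca12 at 31.5, Cers3 at 23.7, Alox8 at 10.5 and Degs2 at 2.53 CPM per kb, and no neighbours in that order had overlapping counting intervals. Lengths were taken over all annotated transcripts of a gene, and the intervals do not cover this choice. Aloxe3 with 6397 bases had 254.5 CPM in wildtype and Alox12b with 2431 bases had 225.3 CPM, so their order depends on the lengths used. Scd1, Elovl4 and Alox12b held the top places and Degs2 the lowest in all 4 libraries. Scd3 moved from place 4 in wildtype to place 8 in Sp6 cKO, to place 6 in Sp8 cKO and to place 9 in Sp6+Sp8 cKO, where it stood at 12.7 CPM per kb. Alox8 was at place 9 in wildtype and Sp8 cKO and at place 7 in Sp6 cKO and Sp6+Sp8 cKO. In Sp6 cKO the intervals of Alox8, Scd3 and Cers3 overlapped from one place to the next, at 26.6, 24.6 and 23.1 CPM per kb, as did those of Aloxe3, Elovl3 and Abca12. In Sp8 cKO the interval of Aloxe3 overlapped those of Elovl3 and Scd3, its neighbours in the order.

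The desaturases put the double bond into saturated fatty acyl-CoA. Scd1 (ENSMUSG00000037071, GRCm38 chr19:44394455-44407879, minus strand) is the form most widely used in skin and fat, and Scd3 (ENSMUSG00000025202, chr19:44203269-44244016, plus strand) lies in the same cluster, with Scd2 and Scd4 between them and no other protein-coding gene. Their coding sequences were 91.5% identical over 1068 aligned bases and held a run of 185 identical bases, longer than the 150 bases of a read. That run is shown with 30 bases on either side because the division of reads between the genes depends on such stretches, with the 5 bases that differ in capitals (coding strand, GENCODE M21 transcripts):
Scd1: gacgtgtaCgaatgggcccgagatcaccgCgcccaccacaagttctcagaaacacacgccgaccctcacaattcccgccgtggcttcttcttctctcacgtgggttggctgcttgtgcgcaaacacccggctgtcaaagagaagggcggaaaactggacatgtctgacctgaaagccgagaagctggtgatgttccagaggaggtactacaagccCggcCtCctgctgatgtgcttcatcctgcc
Scd3: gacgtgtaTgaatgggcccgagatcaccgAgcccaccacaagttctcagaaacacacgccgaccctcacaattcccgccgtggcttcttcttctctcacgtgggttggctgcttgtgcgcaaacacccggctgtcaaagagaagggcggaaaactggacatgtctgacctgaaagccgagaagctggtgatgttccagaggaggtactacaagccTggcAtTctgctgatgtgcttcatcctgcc
Of the 3510 distinct 31-base words in the annotated Scd3 transcripts, 14.4% also occur in transcripts of other genes, and 285 of them in Scd1. Counts of Scd1 and Scd3 were not whole numbers in any library, as happens when reads are divided between genes, so the values of both carry this uncertainty.

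Scd3 had 236 CPM in wildtype, 87.5 CPM in Sp6 cKO, 129.9 CPM in Sp8 cKO and 45.2 CPM in Sp6+Sp8 cKO. Wildtype was the highest library and Sp6+Sp8 cKO the lowest. Against wildtype Scd3 was 2.70-fold lower in Sp6 cKO (95% interval 2.53 to 2.88) and 5.23-fold lower in Sp6+Sp8 cKO (95% interval 4.83 to 5.67), log2 ratios of -1.43 and -2.38. In Sp8 cKO it was 1.82-fold lower, with a log2 ratio of -0.86 inside the size rule. Ranked from the lowest ratio, Scd3 was number 89 of 16861 genes in Sp6+Sp8 cKO.

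Scd1 gave 3299.7 CPM in wildtype, 3435 CPM in Sp6 cKO, 3461 CPM in Sp8 cKO and 4074 CPM in Sp6+Sp8 cKO. It was thus highest in the library where Scd3 was lowest, with log2 ratios to wildtype of 0.06, 0.07 and 0.30. The sum of both genes was 3536, 3523, 3591 and 4119 CPM. Scd3 made up 6.68% of the summed counts in wildtype (exact Clopper-Pearson 95% interval 6.51 to 6.86), 2.49% in Sp6 cKO (2.34 to 2.63), 3.62% in Sp8 cKO (3.45 to 3.79) and 1.10% in Sp6+Sp8 cKO (1.02 to 1.18). Scd3 is the small part of the pair, so the sum hardly registers its shortfall. How far the division of shared reads enters the Scd3 values was not tested.

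**Figure D2:**
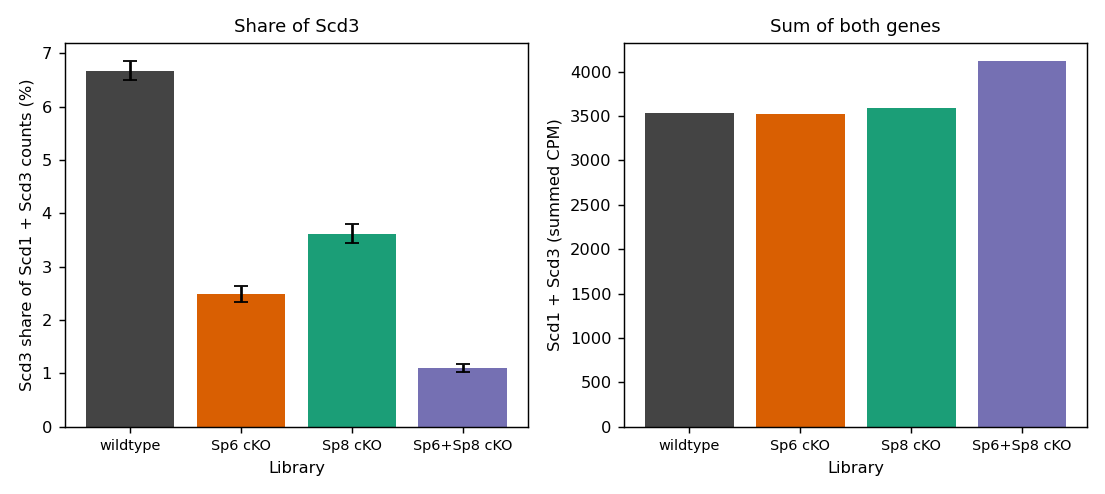
Left, Scd3 counts as a percent of Scd1 plus Scd3 counts in each library, with exact Clopper-Pearson 95% intervals; right, the summed CPM of both genes. The share runs from 6.68% in wildtype to 1.10% in Sp6+Sp8 cKO while the sum lies between 3523 and 4119 CPM.

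Scd2, the paralogue of the same cluster that is widely expressed, was at 624 CPM in wildtype and at 534, 493 and 446 CPM in the knockouts of Sp6, of Sp8 and of both, with log2 ratios of -0.22, -0.34 and -0.48. Scd4 had between 15 and 39 counts in a library and its interval against wildtype included 1 in each comparison. Among protein-coding genes with a mean of at least 10 CPM, the profiles nearest to Scd3 over the 4 libraries (Euclidean distance of centred log2 CPM) were those of Lce1m, a late cornified envelope gene (distance 0.36), Slc6a19, an amino acid transporter (0.45), and Crnn, cornulin of the cornified envelope (0.54). Lce1m stood at 21.9, 9.46, 14.9 and 5.85 CPM in the same order of libraries. With 4 points a profile is a description of these libraries.

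Elovl3 and Elovl4 add carbon pairs to fatty acyl chains, Elovl3 in sebaceous gland, hair follicle and brown fat, and Elovl4 to the ultra-long lengths found in acylceramides. Elovl3 (ENSMUSG00000038754, chr19:46131897-46135694) had 102 CPM in wildtype, 73.7 CPM in Sp6 cKO, 80.8 CPM in Sp8 cKO and 78.1 CPM in Sp6+Sp8 cKO. Wildtype was above each knockout library, with log2 ratios of -0.47 (95% interval -0.59 to -0.36), -0.34 (-0.45 to -0.23) and -0.39 (-0.50 to -0.29), all inside the size rule. The 3 knockout libraries lay within 1.10-fold of each other, although Sp6+Sp8 cKO was above Sp6 cKO by a log2 ratio of 0.46 when scaled to the keratinocyte lists described below. Elovl4 (ENSMUSG00000032262, chr9:83778692-83806277) was nearly level, at 1555, 1618, 1548 and 1530.3 CPM, with log2 ratios to wildtype of 0.06, -0.01 and -0.02, the last of which became 0.31 with keratinocyte scaling.

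Cers3 joins ultra-long acyl chains to the sphingoid base, and Degs2 desaturates and hydroxylates dihydroceramide to give the phytoceramides of skin. Cers3 (ENSMUSG00000030510, chr7:66743504-66823691) had 77.1 CPM in wildtype, 75.2 CPM in Sp6 cKO, 70.5 CPM in Sp8 cKO and 61.2 CPM in Sp6+Sp8 cKO. The Sp6+Sp8 cKO library was the lowest, at a log2 ratio of -0.33 to wildtype (-0.00 with keratinocyte scaling). Degs2 (ENSMUSG00000021263, chr12:108678711-108702315) was the scarcest of the 10 genes, with 142 counts in wildtype, 152 counts in Sp6 cKO, 68 counts in Sp8 cKO and 49 counts in Sp6+Sp8 cKO, or 6.53, 11.8, 5.40 and 3.18 CPM. The Sp6 cKO library was the highest and Sp6+Sp8 cKO the lowest.

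Against wildtype, Degs2 in Sp6+Sp8 cKO was 2.05-fold lower (95% interval 1.47 to 2.90). Its log2 ratio of -1.01 lies at the edge of the size rule, and it did not pass with DESeq2 size factors, library totals (with or without the 20 most abundant genes), prior count 5 or keratinocyte scaling. In Sp6 cKO it was 1.80-fold higher than in wildtype (95% interval 1.43 to 2.28), a log2 ratio of 0.84 that did not pass. The largest gap was within batch 1, where Degs2 in Sp6+Sp8 cKO was 3.70-fold lower than in Sp6 cKO (95% interval 2.67 to 5.22). Its exons overlap those of Evl, a gene on the opposite strand, over 278 bases. No 31-base word of the Degs2 transcripts is shared with another gene on the same strand, and no source used here says whether reads were counted by strand. Degs2 counts were not whole numbers, and in each library their fractions complemented those of Evl, as when reads are divided between a pair of genes. In wildtype the estimated counts were 142.486 for Degs2 and 194.514 for Evl, and in Sp6+Sp8 cKO 48.767 and 97.233. The Degs2 ratios and their intervals take no account of this division. Evl stood at 8.97, 9.30, 6.03 and 6.30 CPM, over a smaller range than Degs2. In Sp6 cKO Evl was 1.04-fold higher than in wildtype, with a 95% interval of 0.82 to 1.31 that includes 1. How large a part Evl has in the Degs2 values was not tested.

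Alox8, Alox12b and Aloxe3 lie side by side on chromosome 11. Aloxe3 (ENSMUSG00000020892, chr11:69125896-69149115) and Alox12b (ENSMUSG00000032807, chr11:69156989-69169792) are on the plus strand with 7873 bases between them, and Alox8 (ENSMUSG00000020891, chr11:69183932-69197843) is on the minus strand, 14139 bases beyond Alox12b, with no other protein-coding gene between them. Alox12b and then Aloxe3 act on the linoleate of acylceramides, and Alox8 is a lipoxygenase of arachidonic acid known to be induced in mouse skin by phorbol ester. These neighbours did not share a pattern over the 4 libraries.

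Alox8 had 37.2 CPM in wildtype, 94.6 CPM in Sp6 cKO, 31.8 CPM in Sp8 cKO and 78.3 CPM in Sp6+Sp8 cKO. Both libraries labelled as lacking Sp6 were high, and wildtype and Sp8 cKO were both low. Against wildtype Alox8 was 2.54-fold higher in Sp6 cKO (95% interval 2.32 to 2.78) and 2.10-fold higher in Sp6+Sp8 cKO (95% interval 1.92 to 2.30), and its log2 ratio in Sp8 cKO was -0.22. Within batch 1 it was 2.97-fold higher in Sp6 cKO than in Sp8 cKO (95% interval 2.65 to 3.33) and 2.46-fold higher in Sp6+Sp8 cKO than in Sp8 cKO (95% interval 2.19 to 2.76), so the gap did not depend on the wildtype library. Both of these ratios use Sp8 cKO, the library with low Xist, and the part of sex in them was not tested. Sp6+Sp8 cKO over Sp6 cKO gave a log2 ratio of -0.27, or 0.10 with keratinocyte scaling. Alox8 counts were whole numbers within 0.01 in all 4 libraries, and 2.66% of its 31-base words occur in other genes.

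Alox12b had 225 CPM in wildtype, 223 CPM in Sp6 cKO, 184 CPM in Sp8 cKO and 140.1 CPM in Sp6+Sp8 cKO. It was level in wildtype and Sp6 cKO and lowest in Sp6+Sp8 cKO, 1.61-fold lower than wildtype (95% interval 1.53 to 1.69), a log2 ratio of -0.69 inside the size rule. Aloxe3 varied less, at 255, 259.7, 254 and 224 CPM, with a log2 ratio of -0.19 in Sp6+Sp8 cKO. In that library Alox8 was therefore higher than in wildtype and both of its neighbours were lower by less than 2-fold. Scaled to the keratinocyte lists, the log2 ratios of Aloxe3 and Alox12b in Sp6+Sp8 cKO were 0.15 and -0.35, so the direction for Aloxe3 depends on the scaling.

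The nearest profiles to Alox8 were those of Sprr2d, a small proline-rich cornified envelope gene (distance 0.19), and of the keratinocyte serpins Serpinb3b (0.37) and Serpinb3a (0.39). Sprr2d had 77.0, 232, 69.5 and 164 CPM in wildtype and the knockouts of Sp6, of Sp8 and of both, and it is also in the wound-activated list described below. Sprr2 and Serpinb3 genes have close copies, so their values are uncertain. For Degs2 the nearest were 2310034C09Rik (0.26), H60c (0.44) and 2310057N15Rik (0.45).

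Abca12, which carries glucosylceramides into lamellar granules and is mutated in harlequin ichthyosis, lies at chr1:71242276-71414910 (ENSMUSG00000050296). It had 466 CPM in wildtype, 522 CPM in Sp6 cKO, 493 CPM in Sp8 cKO and 384 CPM in Sp6+Sp8 cKO. Sp6+Sp8 cKO was the lowest library, 1.21-fold lower than wildtype (95% interval 1.18 to 1.25), a log2 ratio of -0.28 that became 0.05 when scaled to the keratinocyte lists.

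**Figure D3:**
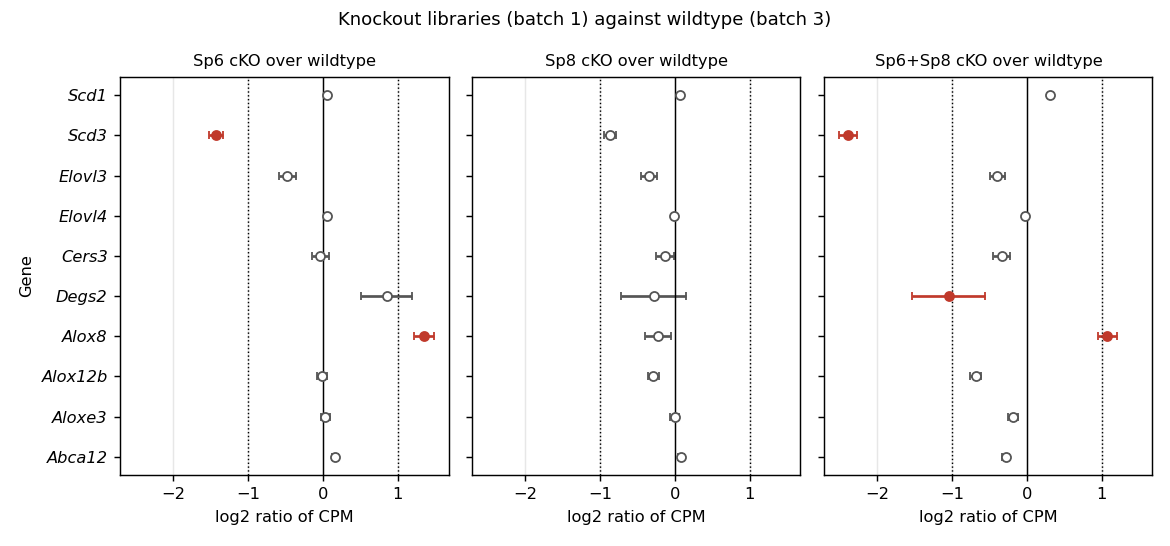
log2 ratio of CPM of each gene in the 3 knockout libraries over wildtype, with exact 95% intervals of counting error; dotted lines mark 2-fold and filled red points are past the size rule. Scd3 is lowest in each panel, at 2.70-fold, 1.82-fold and 5.23-fold below wildtype, and Alox8 is past the rule in Sp6 cKO and Sp6+Sp8 cKO.

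Promoters of the 3 genes that passed the size rule, and of Alox12b as the neighbour of Alox8, are shown since their levels set these genes apart from the rest. RefSeq on GRCm38.p6 gave a promoter for 7 of the 10 genes (Abca12, Alox12b, Alox8, Cers3, Degs2, Elovl4 and Scd3). The 250 bases before the RefSeq start were searched on both strands. For Alox12b, Scd3 and Degs2 this start lies inside the GENCODE gene positions given above, so the end of the window overlaps the gene. The motifs were GGGCGG (the GC box), CCACCC (the CACCC box), TGANTCA (AP-1), TCACNCCAC (sterol response) and TATAAA (the core promoter box). GGGCGG and CCACCC are letters that Sp and Klf factors are known to bind. Capitals mark every match, read 5′ to 3′ on the strand of the gene:
Scd3 (chr19:44203038-44203287, plus strand): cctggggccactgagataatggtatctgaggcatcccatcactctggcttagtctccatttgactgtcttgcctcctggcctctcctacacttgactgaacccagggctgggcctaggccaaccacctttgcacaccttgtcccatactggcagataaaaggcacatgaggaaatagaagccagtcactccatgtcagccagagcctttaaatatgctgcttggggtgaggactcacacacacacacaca
Degs2 (chr12:108702307-108702556, minus strand): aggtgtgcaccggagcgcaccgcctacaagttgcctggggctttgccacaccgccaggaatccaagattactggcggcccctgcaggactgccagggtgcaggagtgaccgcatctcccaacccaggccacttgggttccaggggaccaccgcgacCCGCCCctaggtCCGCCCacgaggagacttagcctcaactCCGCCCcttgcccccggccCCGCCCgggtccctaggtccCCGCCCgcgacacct
Alox8 (chr11:69197844-69198093, minus strand): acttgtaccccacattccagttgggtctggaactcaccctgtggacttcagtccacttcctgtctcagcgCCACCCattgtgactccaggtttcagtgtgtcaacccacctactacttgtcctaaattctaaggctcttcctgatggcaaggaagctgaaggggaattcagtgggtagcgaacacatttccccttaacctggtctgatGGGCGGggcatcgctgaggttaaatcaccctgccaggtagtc
Alox12b (chr11:69156822-69157071, plus strand): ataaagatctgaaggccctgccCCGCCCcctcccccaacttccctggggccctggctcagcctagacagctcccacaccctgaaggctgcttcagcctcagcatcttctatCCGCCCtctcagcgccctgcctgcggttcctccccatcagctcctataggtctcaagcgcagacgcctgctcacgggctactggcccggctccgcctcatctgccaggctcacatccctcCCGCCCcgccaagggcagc
GGGCGG was found 5 times before Degs2, 3 times before Alox12b, 2 times before Elovl4 and 1 time before Alox8, and not before Scd3, Abca12 or Cers3. It occurs in 32.7% of 32851 promoters of this length. CCACCC occurred before Alox8 alone of the 7, and in 28.1% of all promoters. The other motifs, held by 6.75% (TGANTCA), 1.05% (TCACNCCAC) and 12.4% (TATAAA) of promoters, had no match in the 7 windows. A match is a run of letters and not a measured binding site.

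Comparisons among the knockout libraries lie within batch 1, although those with Sp8 cKO also set a library with low Xist against one with high Xist. Xist also differed between Sp6+Sp8 cKO and Sp6 cKO, at 3528 and 1963 CPM. In Sp6 cKO against Sp8 cKO, Alox8 and Degs2 were higher past the size rule and 0 of the 10 genes were lower, where 3.1% of all genes passed (1.35% higher and 1.75% lower). Degs2 was 2.18-fold higher there (95% interval 1.63 to 2.95), and with keratinocyte scaling its log2 ratio of 1.11 became 0.95, which did not pass. In Sp6+Sp8 cKO against Sp6 cKO only Degs2 passed, against 3.97% of all genes (1.89% higher and 2.08% lower), while Scd3 was 1.94-fold lower (95% interval 1.76 to 2.13) and stayed inside the rule at -0.95. In Sp6+Sp8 cKO against Sp8 cKO, Scd3 was 2.88-fold lower (95% interval 2.63 to 3.15), Alox8 was higher, and 4.68% of all genes passed (1.88% higher and 2.8% lower). Scd3 thus had its lowest level in Sp6+Sp8 cKO within batch 1 as well. The other 7 genes lay between -0.67 (Alox12b, Sp6+Sp8 cKO over Sp6 cKO) and 0.27 (Alox12b, Sp6 cKO over Sp8 cKO) in these 3 comparisons. With keratinocyte scaling, Alox12b was at -0.30 and Scd1 at 0.62 in Sp6+Sp8 cKO over Sp6 cKO.

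**Figure D4:**
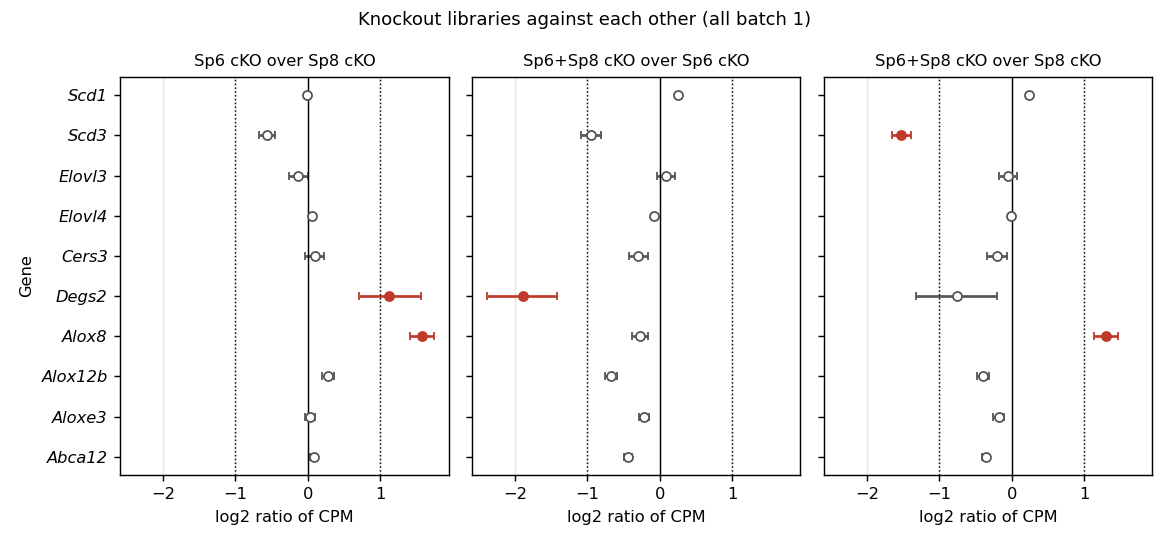
log2 ratio of CPM of each gene between the knockout libraries, all of batch 1, with exact 95% intervals of counting error; dotted lines mark 2-fold and filled red points are past the size rule. Alox8 is higher in Sp6 cKO and in Sp6+Sp8 cKO than in Sp8 cKO, and Degs2 in Sp6+Sp8 cKO is 3.70-fold below its level in Sp6 cKO.

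In other genes of the same pathways, as over all genes, few passed the size rule. Against wildtype, 4.4%, 3.82% and 5.79% of all genes passed in the knockouts of Sp6, of Sp8 and of both. Of 20 further measured genes of fatty acid synthesis, elongation and desaturation, 0 passed against wildtype in any knockout library, with medians of -0.11, -0.01 and -0.09. Fasn, fatty acid synthase, was at 759.9, 709.6, 734 and 727.5 CPM in wildtype and the knockouts of Sp6, of Sp8 and of both. Of 24 further ceramide and sphingolipid genes, 0 passed in Sp6 cKO and Sp8 cKO, and in Sp6+Sp8 cKO 1 was higher and 0 were lower (median -0.02). That gene was Acer2, a Golgi ceramidase, at 21.2 CPM in wildtype, 38.0 CPM in Sp6 cKO, 35.3 CPM in Sp8 cKO and 48.9 CPM in Sp6+Sp8 cKO. Degs1, the general dihydroceramide desaturase, was at 540.1, 629.7, 563 and 557 CPM.

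Of 13 further acylceramide and lipid envelope genes, 0 passed in any knockout library, and their medians were 0.07 for Sp6 cKO, -0.09 for Sp8 cKO and -0.22 for Sp6+Sp8 cKO. In Sp6+Sp8 cKO Tgm1, the transglutaminase that cross-links the envelope, was at a log2 ratio of -0.66, Sult2b1, a cholesterol sulfotransferase, at -0.60 and Pnpla1, which transfers linoleate to make acylceramide, at -0.48. Of 8 further lipoxygenase and epoxide hydrolase genes, 1 was higher in Sp8 cKO and 0 passed in the other libraries. It was Alox15, a lipoxygenase of leukocytes, with 12 counts in wildtype and 16 in Sp8 cKO. None of 20 cholesterol synthesis genes or 15 lipid regulators, which include Srebf1, Pparg and Nr1h3, passed in any knockout library, and the medians of these lists lay between -0.11 and 0.00. The share passing over all genes was 3.82% to 5.79%, so lists of this size with no gene or 1 gene past the rule lie near the background.

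The sebaceous gland list showed no common shift. Of 17 genes other than Scd1, Scd3 and Elovl3, 1 was higher and 0 lower in Sp6 cKO, 0 higher and 1 lower in Sp8 cKO, and 0 higher and 1 lower in Sp6+Sp8 cKO, with medians of 0.00, 0.04 and 0.00. Dgat2l6, of the diacylglycerol acyltransferase family, had 55.0 CPM in Sp6 cKO against 25.8 CPM in wildtype, and Plin5, a lipid droplet protein, had 24 counts in wildtype and 4 in Sp8 cKO. Awat2, a wax synthase of sebaceous glands, was at 17.2, 14.6, 14.0 and 8.25 CPM in wildtype and the knockouts of Sp6, of Sp8 and of both. The melanocortin receptor Mc5r of sebocytes was at 17.4, 14.8, 18.3 and 14.2 CPM in the same order. The part of sebaceous gland content in the Scd3 values was not tested. The summed level of the list ranged from 5484 to 6176 CPM, most of it Scd1.

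Scd1 is also abundant in fat, so adipocyte markers are described here. Of 14 adipocyte genes 12 were measured and 0 passed in any comparison with wildtype, where 3.82% to 5.79% of all genes passed. The medians were -0.11, 0.03 and -0.17. Adipoq was at 2.12, 1.71, 2.38 and 1.23 CPM, and the summed list ranged from 261 to 289.8 CPM. The part of fat in the Scd1 values was not tested.

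Markers of several cell types had medians below 0 in Sp6+Sp8 cKO, as the barrier lipid genes did. The suprabasal and cornified list had a median of -0.48 there with 2 of 20 genes lower, Krt77 and Krtdap, and 0 higher, against 0.04 in Sp6 cKO and -0.12 in Sp8 cKO. Its summed level was 37908 CPM in wildtype, 39759 CPM in Sp6 cKO, 34666 CPM in Sp8 cKO and 29045 CPM in Sp6+Sp8 cKO. Basal keratinocyte genes had medians of -0.18, -0.15 and -0.24 with 0 of 10 past the rule. The median of 9 fibroblast genes in Sp6+Sp8 cKO was -0.31 with 0 past the rule, and that of 8 osteoblast genes was -0.40 with 1 higher (Ibsp) and 2 lower (Bglap and Bglap2). Summed fibroblast genes were 15755 CPM in wildtype and 12477 CPM in Sp6+Sp8 cKO, while summed osteoblast genes were 407 and 443 CPM. The part of these differences in the values of the barrier lipid genes was not tested. Scaled to the 2 keratinocyte lists, the log2 ratios in Sp6+Sp8 cKO over wildtype were -2.05 for Scd3, 1.40 for Alox8, -0.68 for Degs2 and 0.64 for Scd1, while the median of all genes moved to 0.32. Scd3 and Alox8 thus remained past the size rule on this scale, while Cers3, Aloxe3 and Abca12 stood at -0.00, 0.15 and 0.05. The sum behind the scale was mostly suprabasal. The basal list summed to 7880 CPM in wildtype and 7315 CPM in Sp6+Sp8 cKO, beside 37908 and 29045 CPM for the suprabasal list. Values on this scale are therefore relative to genes that were themselves lower in Sp6+Sp8 cKO, and are not levels per keratinocyte.

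Wound-activated keratinocyte genes did not share a direction in Sp6+Sp8 cKO. Of 11 measured, 5 were higher in Sp6 cKO, 4 were higher in Sp8 cKO and 5 were higher in Sp6+Sp8 cKO, and 1, Sprr1b, was lower in the last, where 4.4%, 3.82% and 5.79% of all genes passed. The medians of the list were 0.43, 0.10 and 0.04, and its summed level was 2841 CPM in wildtype and 3338, 2881 and 2435 CPM in the knockouts of Sp6, of Sp8 and of both. The keratins Krt6a, Krt6b, Krt16 and Krt17 of activated epidermis had log2 ratios in Sp6+Sp8 cKO of -0.27, -0.17, -0.34 and 0.04. S100a8 was at 8.83, 50.2, 30.6 and 69.1 CPM in wildtype and the knockouts of Sp6, of Sp8 and of both, and so was higher in Sp8 cKO too. Sprr2d, the nearest profile to Alox8, was not, with log2 ratios to wildtype of 1.59, -0.15 and 1.09 in the knockouts of Sp6, of Sp8 and of both. Summed macrophage genes were 272 CPM in wildtype and between 328 and 397 CPM in the knockout libraries, and summed nail and hair keratins were 3652 CPM in Sp6+Sp8 cKO and 5916 to 6768 CPM in the other libraries. The part of these differences in the values of Scd3, Degs2 and Alox8 was not tested.

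**Figure D5:**
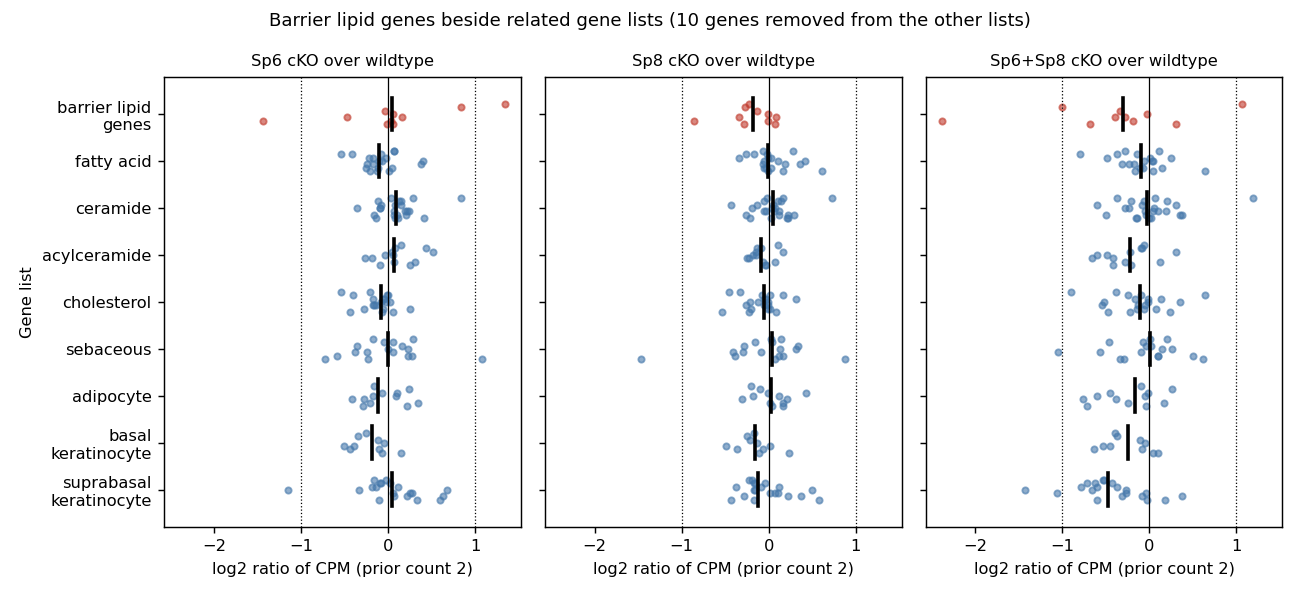
log2 ratio to wildtype (prior count 2) of each measured gene, 1 point per gene, for the 10 barrier lipid genes in red and for 8 related lists without those 10 genes in blue; black bars are medians and dotted lines mark 2-fold. The suprabasal keratinocyte median is -0.48 in Sp6+Sp8 cKO, and the fatty acid, ceramide, cholesterol, sebaceous and adipocyte medians lie between -0.17 and 0.09 in all panels.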

How the data were processed

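Paired-end reads of 150 bp came from strand-specific (dUTP), poly-A selected libraries, per the labels' protocols. Genome build GRCm38 and, with no roles, Salmon, STAR, Trim Galore 0.6.4, deepTools, featureCounts and edgeR are listed in the submitters' processing notes. No source used here gives the annotation release. The authors deposited estimated counts per gene, not scaled for depth. The table held 1 further column, whose name fits no sample here, and it was left out.

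The rounded estimated counts were scaled with TMM factors (edgeR 4.0.16, R 4.3.3) over the 4 libraries and all genes. Intervals of ratios and shares are exact Clopper-Pearson and those of single levels exact Poisson. At these depths 3 counts correspond to between 0.138 and 0.238 CPM. Positions, exon lengths and transcripts came from GENCODE M21 (GRCm38), where 98.8% of identifiers were found. Where several identifiers carried 1 symbol, the one with the highest mean CPM was used. Gene lists were described over members that reached a CPM of 1 in any library. With 1 library per genotype, no significance test was made. The 10 genes, the lists and the settings to be varied (scaling, prior count, CPM filter, size threshold, gene types) were chosen with earlier results of these data known. The genes named are the 10, Sp6 and Sp8, up to 4 genes past the size rule per list and comparison, the 3 nearest profiles of each of the 10 genes that passed, and list genes with a defining role. Other genes were named after their values were seen. The procedure was tested on simulated counts that held counting error alone. That test says nothing of differences between animals or batches, or of reads divided between genes.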

Additional observations from a re-analysis of the deposited data

How the results depend on the processing

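The counts of barrier lipid genes past the size rule changed by more than 1.5 times under 3 of the 11 alternatives. With a threshold of 3-fold, 0 genes passed in Sp6 cKO against wildtype, 1 (Scd3) in Sp6+Sp8 cKO against wildtype, 0 in Sp6 cKO against Sp8 cKO and 0 in Sp6+Sp8 cKO against Sp8 cKO. With a threshold of 1.5-fold, 1 gene (Scd3) passed in Sp8 cKO against wildtype and 3 (Scd3, Degs2 and Alox12b) in Sp6+Sp8 cKO against Sp6 cKO. Scaled to the summed keratinocyte lists, 1 gene (Alox8) passed in Sp6 cKO against Sp8 cKO. In Sp6+Sp8 cKO against wildtype the count was 2 in place of 3 with DESeq2 1.42.0 size factors, with library totals, with totals without the 20 most abundant genes, with keratinocyte scaling and with prior count 5, in each case through the loss of Degs2. Where a gene was past the rule in a comparison, its log2 ratio there kept its sign under all 11 alternatives. Keratinocyte scaling moved 46 of the 60 log2 ratios outside their counting interval and shifted the median of all genes by up to 0.37. Under it 1103 genes were higher and 263 lower in Sp6+Sp8 cKO against wildtype, in place of 479 and 497, 936 and 135 in place of 318 and 351 against Sp6 cKO, and 608 and 314 in place of 317 and 473 against Sp8 cKO. It gave 500 higher and 192 lower in Sp8 cKO against wildtype, in place of 383 and 262, and 143 and 418 in Sp6 cKO against Sp8 cKO, in place of 229 and 296. Counts over all genes also moved by more than 1.5 times. In the order Sp6 cKO, Sp8 cKO and the double knockout over wildtype, then Sp6 cKO over Sp8 cKO, and Sp6+Sp8 cKO over Sp6 cKO and over Sp8 cKO, they were 743, 645, 976, 525, 669 and 790 as reported, 1534, 1377, 2322, 1018, 1606 and 1834 at 1.5-fold, 312, 245, 359, 218, 210 and 257 at 3-fold, 255, 192, 376, 135, 214 and 277 with a CPM minimum of 5, and 489, 383, 633, 345, 395 and 497 among protein-coding genes. With no CPM filter the count for Sp8 cKO over wildtype was 973. No library could be left out, since each genotype has 1. No paired analysis was possible because each group has 1 library and the labels give no replicate numbers. Degs2, with 49 to 152 counts, is limited by depth, and the others have at least 401 counts in each library.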
